A study of Mus musculus with 18 samples.

Results

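The respiratory chain and ATP synthase were represented on these arrays by 73 genes of the 8251 that the platform table names with 1 symbol. The members are all genes whose symbol begins with Nduf, Sdh, Uqcr, Atp5, or Cox followed by a digit. They comprise 29 subunit genes of complex I, 4 of complex II, 7 of complex III, 15 of complex IV and 14 of complex V. A further 4 members, Ndufaf1, Ndufaf4, Sdhaf1 and Sdhaf2, encode assembly factors that carry the same prefixes. The assembly genes Cox14, Cox16, Cox17, Cox18 and Cox20 were left out, as were 11 probe sets with several symbols, so Ndufb4, Ndufs5, Ndufs6, Ndufa11 and Cox7c are not described. Subunits encoded by mitochondrial DNA were not analysed here. The brightest probe set stood for each gene, and 20 members had more than 1.

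RNA came from 3T3-F442A adipocytes, a mouse line of preadipocytes that fill with fat droplets once differentiated. Cells received growth hormone (GH) or were kept as control, and were taken at 30 min, 4 h or 48 h, which gives 6 groups of 3 arrays. Each group has 1 array in each of 3 numbered experiments, and nothing in the labels says that experiments were separate cultures, so the p-values may cover technical spread alone. For 3 arrays the sample description names another group than the title: GH 30 min of experiment 1, GH 4 h of experiment 3 and control 48 h of experiment 3. Groups here follow the titles. No GH dose, sex or passage is given in the sources used here, and the line is 1 clonal model of the adipocyte rather than fat tissue.

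Oxidative phosphorylation takes place in the inner mitochondrial membrane. Complex I accepts electrons from NADH and complex II from succinate, complex III passes them on to cytochrome c, and complex IV gives them to oxygen. The protons moved on the way drive complex V, the ATP synthase. Most subunits come from nuclear genes, whose promoters often hold sites for the factors NRF1, GABP and YY1, and the genes are read in nearly every cell. In adipocytes, mitochondria also supply citrate for fatty acid synthesis and burn fatty acids. GH acts on adipocytes through its receptor and the kinase JAK2, and STAT5 is a main transcription factor of that path.

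The upstream regions of 5 members are shown because they hold a match to the motif of NRF1, a regulator of respiratory genes, or of STAT5, and because their genes are described below. The sequences are RefSeq's, on build GRCm38.p6, read 5′ to 3′ on the gene's strand, and capitals mark the match. In Ndufa5 and Sdhd the motif lies on the opposite strand, so the capitals show its reverse complement.
Atp5k, NRF1 match, chr5:108434400-108434494, minus strand: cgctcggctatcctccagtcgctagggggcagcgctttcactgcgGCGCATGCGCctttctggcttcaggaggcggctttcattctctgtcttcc
Ndufa5, NRF1 match, chr6:24527691-24527761, minus strand: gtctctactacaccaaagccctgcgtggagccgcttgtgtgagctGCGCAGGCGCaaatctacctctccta
Sdhd, NRF1 match, chr9:50603874-50603973, minus strand: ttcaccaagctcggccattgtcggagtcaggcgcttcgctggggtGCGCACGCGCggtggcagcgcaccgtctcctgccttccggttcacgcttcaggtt
Atp5d, STAT5 match, chr10:80142155-80142253, plus strand: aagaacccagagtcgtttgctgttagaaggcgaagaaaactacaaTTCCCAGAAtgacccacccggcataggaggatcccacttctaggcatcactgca
Atp5o, STAT5 match, chr16:91931631-91931699, minus strand: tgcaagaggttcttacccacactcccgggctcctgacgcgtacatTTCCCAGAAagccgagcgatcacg
The match begins 50 bases before the start site in Atp5k, 26 in Ndufa5, 79 in Sdhd, 75 in Atp5d and 24 in Atp5o. All 5 windows lie upstream of the transcription start, and a match is a run of letters, not a site shown to be bound.

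Over the 60 members with a promoter entry (250 bases before to 50 after the start), both strands were searched for 6 motifs, and no matches of different factors overlapped. The NRF1 motif, GCGC on either side of NT, was found in 12 members (20%), beside 9.97% of the 6573 platform genes with an entry and 5.19% of all 27025 genes. YY1's AAGATGGC was found in 8 (13.3%, beside 4.61% of platform genes). The motif CCGGAAGT of GABP and other ETS factors was in 4 (6.67%, beside 7.80%), and CREB's TGACGTCA in 2 (3.33%, beside 3.16%). The STAT5 motif TTCNNNGAA was in 5 (8.33%, beside 8.50%), namely Atp5d, Atp5o, Atp5pb, Ndufa8 and Ndufb6. The ERR motif TCAAGGTCA was in 1 member, Sdhd (1.67%, beside 0.304%). Members therefore held the NRF1 and YY1 letters in a larger share of promoters than platform genes did, and the STAT5 letters in about the same share. These shares are descriptions without a test.

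The arrays carry the deposited signal of each probe set on a linear scale, already scaled so that the mean without the outer 2% at each end was 500.3 on every array. Defining adipocyte transcripts were all above background: 15 of 15 markers, among them Adipoq, Pparg, Lpl and Slc2a4. None of 6 endothelial markers was above background, and 3 of 7 macrophage markers were (Cd14, Cd68 and Csf1r). Of 8 brown fat markers 2 were above background, Cidea (mean 258) and Cox8b (930). Ucp1, the uncoupling protein of brown fat, read 47.9 against a background limit of 106. Of 14 preadipocyte and fibroblast markers 12 were above background, so the cultures also held such transcripts. GH acted on these cells. Cish, a feedback inhibitor of cytokine receptors and a STAT5 target, read 139 ± 53.5 in control and 874 ± 46.0 with GH at 4 h (SD, n = 3 each, limma adjusted p = 8.2e-04). In whole cultures, fewer cells of a type and less RNA per cell cannot be told apart.

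Of the 73 members, 64 had a mean signal above 106, the highest value among 19 controls for yeast and Bacillus transcripts, and they ran from 157 (Ndufa1) to 15742 (Cox6a1). The other 9 stayed near background, and a dim probe set says little about its transcript. Among them are Cox6a2 (mean 70.6) and Cox7a1 (15.9), the heart and muscle forms of complex IV subunits, and Cox6b2 (42.5), a testis form. The rest are members that most cells use: Ndufa12, Ndufc2, Ndufs4, Cox5a, Cox8a and Atp5j2. Cox8c, another form of the subunit that Cox8a encodes, was above background with a mean of 799, where Cox8a read 41.2. Cox8b, a form found in muscle and brown fat, read above background with a mean of 930, on an _r_at probe set, a kind designed under relaxed rules. Its residual SD of 0.58 (log2 scale) was the widest of the 64: at 30 min the control arrays read 1614, 636 and 597, with experiment 1 far above the others. Members above background repeated well: the median residual SD within groups was 0.19 on the log2 scale, against 0.27 for all 5440 genes above background. For the 9 near background it was 0.52. The 64 members were also bright, with a median signal of 3837 against 254 for all 8251 genes. The part of signal level in these spreads was not tested.

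**Figure D1:**
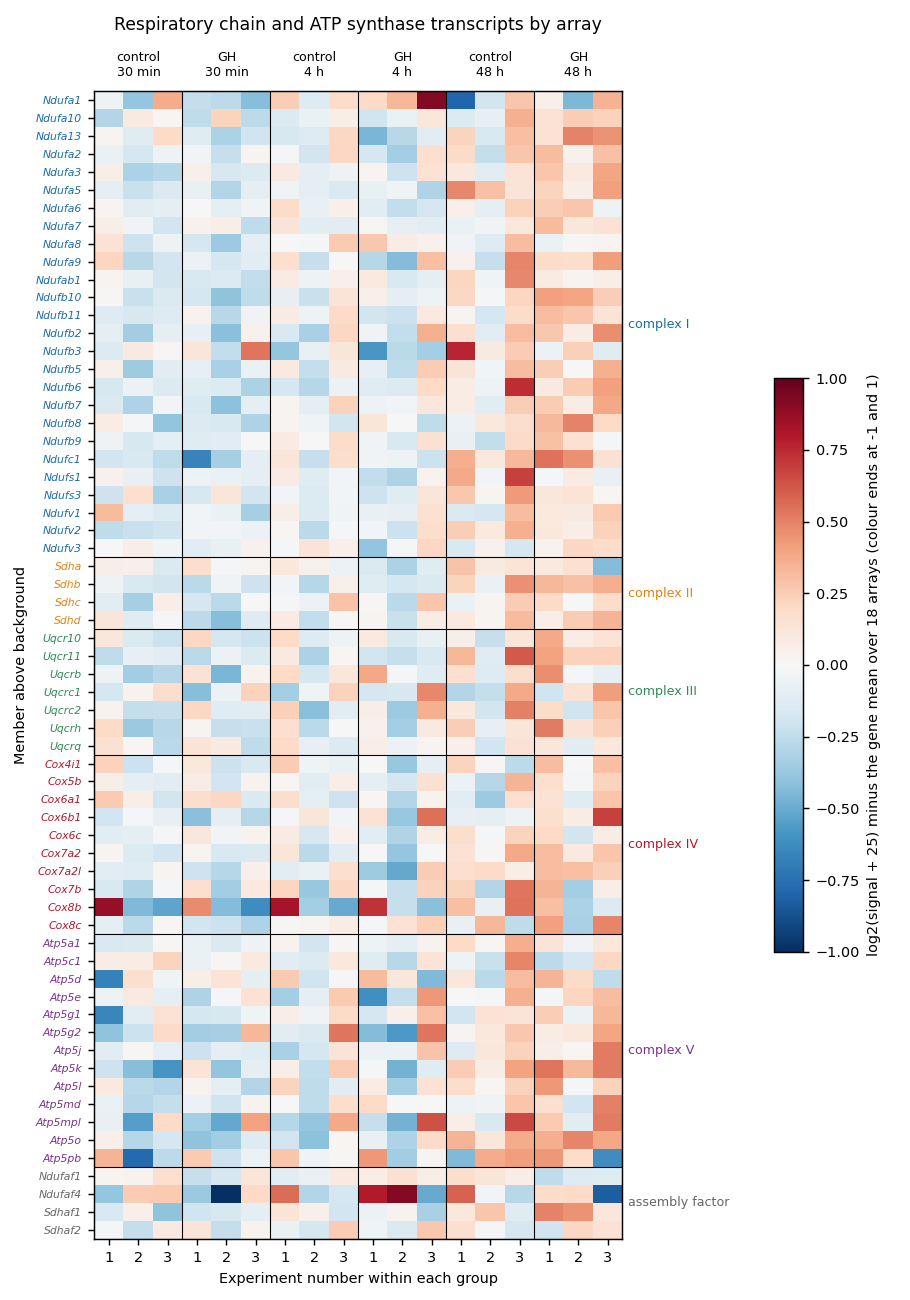
Each row is 1 of the 64 members above background and each column 1 of the 18 arrays, ordered by group and experiment; colour gives log2(signal + 25) minus the gene's mean over the arrays. Blue prevails in most columns at 30 min and red in most at 48 h. By their medians, control 48 h of experiment 2 is blue in complexes I, III and IV, and GH 48 h of experiment 2 in complex IV (-0.07). GH 30 min of experiment 1 is red in complexes III and IV, and control 30 min of experiment 1 in complex III (0.04).

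With GH for 30 min, no member passed the test. By limma over all 12422 probe sets, with Benjamini-Hochberg adjustment, 0 of 73 members were called, where 0.0403% of all probe sets were. With the experiments as a replicate block the count was again 0 (0.0805% of all probe sets), and 0 members had an unadjusted p below 0.05 (2.45% of all probe sets). Changes here and below are differences in log2(signal + 25) with their standard error. The median member change was -0.01 (all genes -0.03), and 35 members were higher and 38 lower. Higher in 3 of 3 experiments were 7 members (9.59%, all genes 10.1%) and lower in 3 of 3 were 11 (15.1%, all genes 15.5%), so both shares were close to the background.

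The member nearest to a fall at 30 min was Sdhd, a membrane anchor of complex II. Its signals were 4711, 3993 and 4291 in control and 3618, 3219 and 3969 with GH in experiments 1 to 3, a change of -0.27 ± 0.16 (limma adjusted p = 1.00). Every GH array was below every control array, but the adjusted p is far from the threshold. Next came Ndufa13, an accessory subunit of complex I also known as GRIM-19, at 1724, 1553 and 1952 in control and 1558, 1359 and 1474 with GH (-0.24 ± 0.17). Ndufaf1, a complex I assembly factor, read 642, 644 and 712 in control and 532, 558 and 689 with GH (-0.17 ± 0.14). In these 2 genes the groups overlap.

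On the other side stood Atp5k, subunit e of the membrane part of the ATP synthase. It read 372, 317 and 280 in control and 477, 324 and 403 with GH (0.28 ± 0.19, adjusted p = 1.00), higher in each experiment. Ndufv2, an iron-sulfur subunit of the NADH-oxidising end of complex I, read 4088, 4176 and 4257 in control and 4776, 4801 and 4694 with GH (0.19 ± 0.14, adjusted p = 1.00), without overlap. Its direction is not settled, since a dimmer probe set gave -0.35 and the mean of both -0.080. Atp5d, the delta subunit of the central stalk, gave 0.22 ± 0.25, but this came from 1 control array. That array, of experiment 1, read 706 where the other control arrays read 1280 and 1108 and the GH arrays 1199, 1262 and 1070, and without it the change was -0.02.

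Within complexes the extremes at 30 min were small. In complex I they ran from -0.28 (Ndufa1) to 0.19 (Ndufv2) over members above background, in complex II from -0.27 (Sdhd) to 0.08 (Sdha), and in complex III from -0.10 (Uqcrc1) to 0.14 (Uqcrc2). Complex IV ran from -0.17 (Cox6b1) to 0.13 (Cox7b), complex V from -0.16 (Atp5o) to 0.28 (Atp5k), and the assembly factors from -0.47 (Ndufaf4) to 0.03 (Sdhaf2). Near background, Ndufs4 was at 0.23 and Cox5a at -0.48. No complex stood apart from the others in direction.

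At 4 h, where Cish and Socs2 rose, again no member passed: 0 of 73 were called (0.121% of all probe sets), 0 with the block (0.362%), and 1 had an unadjusted p below 0.05 (6.86%). The lowest adjusted p was 0.702, and 0.469 with the block. Medians were -0.02 for the members and 0.01 for all genes, and 33 members were higher and 40 lower. In 3 of 3 experiments 8 members were higher (11%, all genes 16.1%) and 12 lower (16.4%, all genes 16.1%).

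The largest differences at 4 h came from probe sets near background. Cox6a2 had the unadjusted p below 0.05 and read 28.9, 47.7 and 36.1 in control and 51.3, 152 and 66.4 with GH (0.79 ± 0.36, adjusted p = 0.702). Ndufa12, an accessory subunit of complex I, read 42.0, 10 and 12.3 in control and 62.1, 29.2 and 69.0 with GH (0.78 ± 0.44). Cox8a, the widely expressed form of the smallest complex IV subunit, read 13.2, 26.8 and 40.4 in control and 26.4, 58.2 and 102 with GH (0.69 ± 0.43). By their mean signals all 3 lie in the range that probe sets without a target reach, and their sizes depend on the 25 added to each signal.

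Lower means at 4 h were seen for Ndufa6, an accessory subunit of complex I, at 1630, 1355 and 1479 in control and 1325, 1202 and 1272 with GH. Its change was -0.23 ± 0.14 (adjusted p = 0.868), with every GH array below every control array. Ndufa13 was lower in 3 of 3 experiments, as at 30 min, at 1513, 1548 and 1964 in control and 1225, 1392 and 1569 with GH (-0.26 ± 0.17, adjusted p = 0.889). Sdha, the flavoprotein that oxidises succinate, read 1891, 1813 and 1690 in control and 1588, 1406 and 1615 with GH (-0.22 ± 0.16, adjusted p = 0.900), again without overlap. None of these differences passed after adjustment over all probe sets.

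By complex, values at 4 h ran from -0.28 (Ndufb3) to 0.38 (Ndufa1) in complex I and from -0.22 (Sdha) to 0.01 (Sdhd) in complex II. They ran from -0.12 (Uqcr11) to 0.12 (Uqcrc2) in complex III, from -0.20 (Cox7a2l) to 0.09 (Cox6b1) in complex IV and from -0.25 (Atp5g2) to 0.18 (Atp5j) in complex V. The assembly factors ran from -0.11 (Sdhaf1) to 0.37 (Ndufaf4), and Ndufc2, near background, was at -0.36.

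At 48 h most members were slightly higher with GH, but none passed the test: 0 of 73 were called without the block (0.338% of all probe sets) and 0 with it (1.27%). The lowest adjusted p was 0.766, and 0.398 with the block. Without the block 0 members had an unadjusted p below 0.05 (6.5% of all probe sets). With it 1 had, Ndufaf1, beside 931 of all 8251 genes. Members higher with GH numbered 50 and lower 23, with a median change of 0.09 (all genes 0.02) and medians of 0.12, 0.15 and 0.02 in experiments 1 to 3. In 3 of 3 experiments 20 were higher (27.4%, all genes 16.1%) and 5 lower (6.85%, all genes 15%). Members share cells and arrays, so this shift is a description and carries no p. It rests in part on the control arrays: without control 48 h of experiment 2 the median was 0.02, and without that of experiment 3, whose label and description differ, it was 0.17.

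Subunits of complexes I, III, IV and V were among the 20 that were higher in each experiment at 48 h. Complex I gave Ndufa2, Ndufa3, Ndufa7, Ndufb2, Ndufb5, Ndufb7, Ndufb8, Ndufb10, Ndufc2 and Ndufv3, and complex III gave Uqcr10, Uqcrc1 and Uqcrh. Complex IV gave Cox6a1, Cox6a2, Cox6b1 and Cox7a2l, complex V gave Atp5k and Atp5o, and Sdhaf1, which helps put iron-sulfur clusters into Sdhb, was the assembly factor. None of the 4 complex II subunits was in this list. Lower in each experiment were Atp5a1, Cox8a, Cox8b, Ndufaf1 and Ndufv2.

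Among members above background, Cox6b1, a complex IV subunit that faces the space between the membranes, had the highest value at 48 h. It read 217, 216 and 222 in control and 261, 245 and 386 with GH, a change of 0.38 ± 0.21 (adjusted p = 0.854) on an _r_at probe set, a kind designed under relaxed rules. Every GH array was higher, and 1 of them, of experiment 3, was far above the other 2. Near background, Cox6a2 read 69.2, 44.5 and 38.6 in control and 142, 101 and 66.5 with GH (0.74 ± 0.36, adjusted p = 0.773). Cox6b2 read 63.1, 18.1 and 7.1 in control and 50.8, 45.5 and 95.3 with GH (0.80 ± 0.46), and its 2 other probe sets gave -0.81 and 0.00, so its direction is not settled.

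Ndufaf1 came closest to a fall at 48 h, at 713, 686 and 661 in control and 523, 573 and 576 with GH. The change was -0.29 ± 0.14 (adjusted p = 0.766, and 0.398 with the block), without overlap between the groups. Ndufs1, an iron-sulfur subunit that carries electrons through the arm of complex I outside the membrane, read 3604, 2725 and 4469 in control and 2750, 2928 and 2633 with GH (-0.35 ± 0.17, adjusted p = 0.783). Its control arrays of experiments 1 and 3 were high and that of experiment 2 lay within the GH values. Ndufb3, an accessory subunit of the membrane arm, read 3862, 2411 and 2710 in control and 2180, 2676 and 2090 with GH (-0.35 ± 0.22, adjusted p = 0.886), with overlap.

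Values at 48 h by complex ran from -0.35 (Ndufs1) to 0.27 (Ndufb8) in complex I, from -0.23 (Sdha) to 0.12 (Sdhb) in complex II and from -0.05 (Uqcrc2) to 0.21 (Uqcr10) in complex III. They ran from -0.31 (Cox8b) to 0.38 (Cox6b1) in complex IV, from -0.15 (Atp5c1) to 0.22 (Atp5k) in complex V and from -0.29 (Ndufaf1) to 0.26 (Sdhaf1) among assembly factors. Near background, Ndufc2 was at 0.53 and Cox8a at -0.42.

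**Figure D2:**
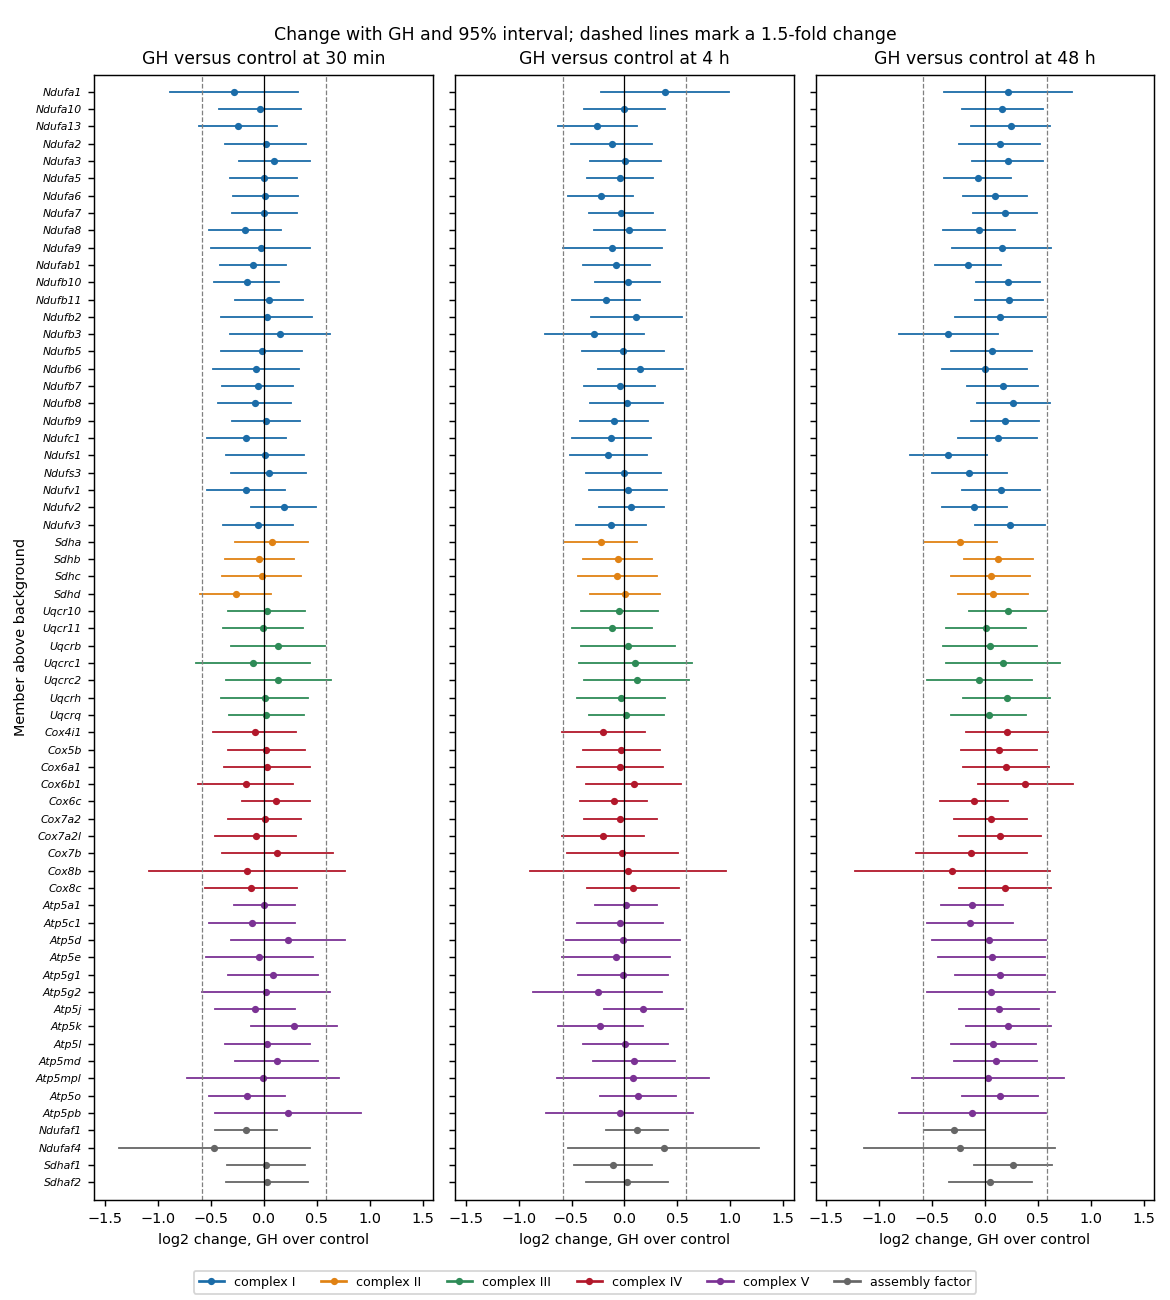
Points give the log2 change with GH at 30 min, 4 h and 48 h for the 64 members above background and bars the 95% interval of limma's moderated test, coloured by complex; dashed lines mark a 1.5-fold change either way. All intervals of the 64 members, drawn without the block, cover 0, and the widest belong to Ndufaf4 and Cox8b. With the block the interval of Ndufaf1 at 48 h ran from -0.55 to -0.03.

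These intervals say how large a GH effect the arrays leave room for. The 95% interval lay wholly within a 1.5-fold change for 49 of the 64 members above background at 30 min, for 50 at 4 h and for 44 at 48 h. With the block the counts were 56, 59 and 55. The median half-width was 0.38 log2 units at each time. Averaged over the 3 times, where each side has 9 arrays, it was 0.22, and 62 of 64 intervals lay within 1.5-fold. That average change also called 0 members (0.177% of all probe sets), 0 with the block (0.668%), and 1, Cox6a2 near background, had an unadjusted p below 0.05 (6.25% of all probe sets). Its median was 0.02 (all genes 0.00).

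No member passed the test of a difference in GH effect between times. The effect at 4 h minus that at 30 min had a median of -0.03 and called 0 members (0.0161% of all probe sets). For 48 h minus 4 h the median was 0.07 with 0 called (0.00805%), and for 48 h minus 30 min 0.10 with 0 called (0.0644%). These medians moved with single arrays. The 48 h minus 4 h median was -0.02 without GH 4 h of experiment 2 and 0.17 without experiment 3, and the 48 h minus 30 min median was 0.02 without control 48 h of experiment 2 and 0.18 without that of experiment 3. With the block 0 were called in each, beside 0.0725%, 0% and 0.177% of all probe sets. An unadjusted p below 0.05 was found in 0 members for each of these differences, beside 4.42%, 4.92% and 5% of all probe sets. Ndufv2 is an example: its brighter probe set was higher with GH in 3 of 3 experiments at 30 min and lower in 3 of 3 at 48 h, and the difference of -0.29 ± 0.20 had an adjusted p of 0.999. Its dimmer probe set went the other way at both times (-0.35 and 0.21). Atp5k, higher at 30 min and lower at 4 h (-0.23 ± 0.19), gave a difference of -0.51 ± 0.27 (adjusted p = 0.999, and 0.593 with the block).

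Calls among the members came only from comparisons between times. Between the controls at 30 min and 4 h, 0 members were called (0.0886% of all probe sets) with a median change of 0.06 (all genes 0.01), and between controls at 4 h and 48 h 0 were called (0%) with a median of 0.13 (all genes 0.02). In the second step 28 members were higher in 3 of 3 experiments (38.4%, all genes 16.3%), and 7 had an unadjusted p below 0.05 (4.12% of all probe sets), against 2 (2.99%) in the first step. Leaving out 1 array or experiment moved the first median between 0.02 (without experiment 3) and 0.14 (without control 4 h of experiment 2), and the second down to 0.07 without that same array or control 48 h of experiment 3. That pattern led to 3 comparisons of 48 h against 30 min, which were added after the values were seen.

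Over control and GH together, 69 of the 73 members had a higher mean log2 value at 48 h than at 30 min, and 3 of them rose past the threshold (0.394% of all probe sets rose). The 3 were Ndufc1, Atp5o and Atp5k, and none fell. The median change was 0.24, against 0.07 for all genes and 0.04 for genes above background, and 0.20, 0.20 and 0.39 in the 3 experiments. An unadjusted p below 0.05 was found in 27 members (37%, beside 12.3% of all probe sets). Higher in 3 of 3 experiments were 45 members (61.6%, all genes 24.3%), and 0 were lower in 3 of 3 (all genes 13.5%). The calls ended in some fits: without the 3 arrays whose description names another group, 0 members were called (adjusted p from 0.104 to 0.144 for the 3), and with the compared arrays fitted alone also 0 (0.060 to 0.075). After centring every array on its median, the members' median was 0.17 and that of all genes 0.01, though 0 members were then called.

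**Figure D3:**
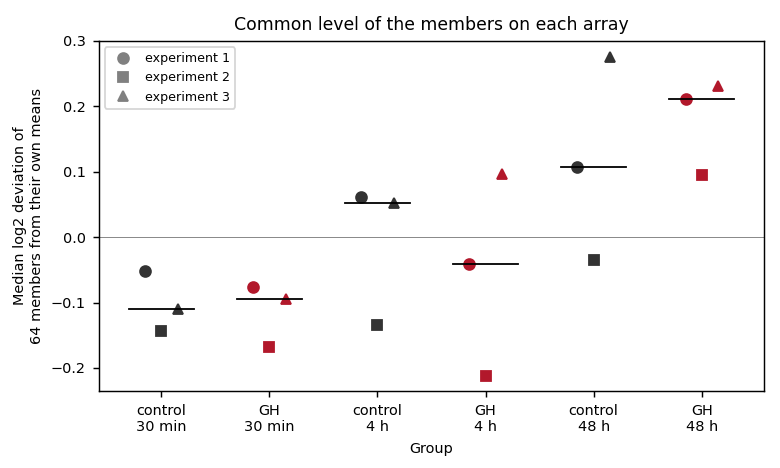
Each point is 1 array: the median, over the 64 members above background, of the log2 deviation from the gene's own mean; control arrays are dark, GH arrays red, symbols give the experiment and bars the group median. All 6 arrays at 30 min lie below 0, from -0.17 to -0.05, and 5 of the 6 at 48 h lie above it, from 0.09 to 0.28, with control 48 h of experiment 2 at -0.03.

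Ndufc1, an accessory subunit of the membrane arm of complex I, changed by 0.61 ± 0.12 (limma adjusted p = 0.025). Its control signals were 2848, 2927 and 2732 at 30 min, 3558, 2770 and 3687 at 4 h, and 4209, 3513 and 4086 at 48 h. With GH they were 2042, 2588 and 3051 at 30 min, 3177, 3146 and 2807 at 4 h, and 4761, 4486 and 3619 at 48 h. Every 48 h array was above every 30 min array, with the 4 h arrays in between and overlapping both.

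Atp5o, known as OSCP, joins the outer stalk of the ATP synthase to its catalytic head. It read 3780, 2990 and 3226 in control and 2756, 2854 and 3332 with GH at 30 min. At 48 h it read 4627, 3952 and 4712 in control and 4695, 5130 and 4778 with GH, all above every 30 min array. The change was 0.56 ± 0.12 (adjusted p = 0.035).

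Atp5k, whose NRF1 match is shown above, rose by 0.62 ± 0.13 (adjusted p = 0.037). From the 30 min values given above it went to 455, 362 and 522 in control and 430, 305 and 396 with GH at 4 h. At 48 h it stood at 523, 458 and 580 in control and 641, 551 and 633 with GH. Only the GH 30 min array of experiment 1, at 477, reached into the 48 h range.

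Ndufb10, an accessory subunit of the membrane arm, just missed the threshold over both treatments (0.44 ± 0.10, adjusted p = 0.0504). In control it read 4334, 3691 and 3895 at 30 min and 4970, 4246 and 4994 at 48 h. With GH it read 3802, 3255 and 3599 at 30 min and 5728, 5670 and 5118 at 48 h. The GH arrays of the 2 times were far apart, and the control arrays overlapped.

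**Figure D4:**
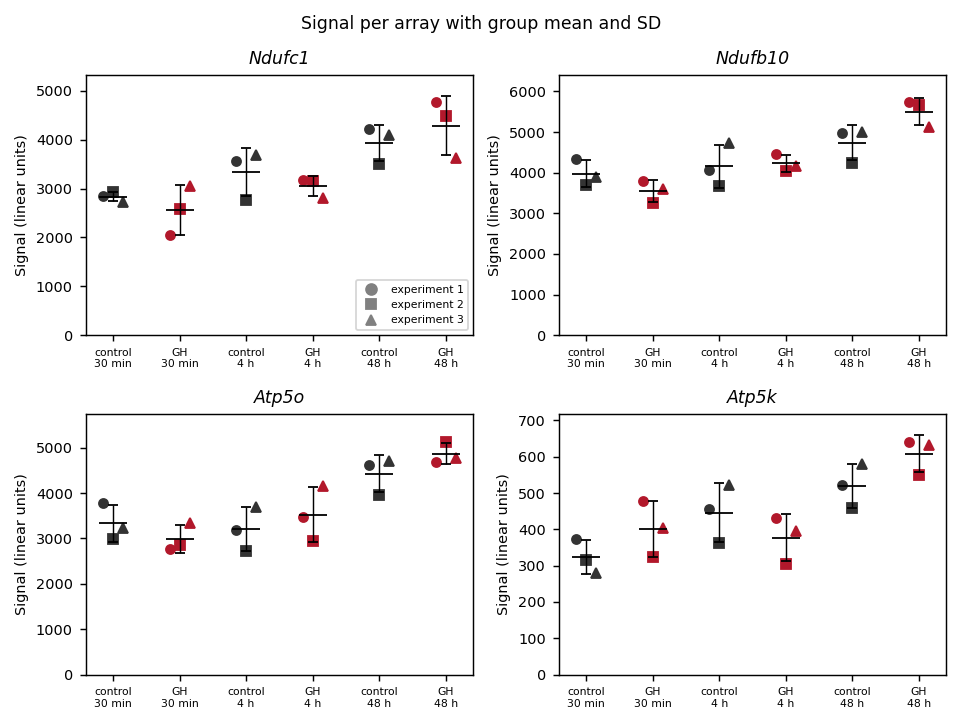
Signal on a linear scale in each of the 18 arrays for Ndufc1, Ndufb10, Atp5o and Atp5k; symbols give the experiment, control is dark and GH red, and bars give the group mean and SD (n = 3). In all 4 genes the 48 h groups have the highest means, with and without GH.

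Further members are described because they passed between these times with the replicate block alone, which is in doubt for this comparison, as given under the processing. They came from 3 complexes and the assembly factors. Their choice rests on a low adjusted p with the block, so they are not an unselected sample of members. The adjusted p-values given for them are limma's without the block. Ndufa5, an accessory subunit of the arm outside the membrane, read 3992, 3654 and 3861 in control and 4045, 3468 and 4011 with GH at 30 min, and 5955, 5234 and 4663 in control and 4973, 4455 and 5683 with GH at 48 h. The change was 0.42 ± 0.10 (adjusted p = 0.076), without overlap. Sdhb, the iron-sulfur subunit of complex II, read 4144, 3862 and 3786 in control and 3565, 4170 and 3720 with GH at 30 min. At 48 h it was at 5024, 4095 and 5911 in control and 5405, 5264 and 5537 with GH (0.42 ± 0.11, adjusted p = 0.088), and only the control array of experiment 2 stayed in the 30 min range. Both genes are read by _s_at probe sets, which can find related transcripts.

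Accessory subunits of the membrane arm, Ndufb7 and Ndufb2, were higher at 48 h in each experiment without passing in the fit without the block. Ndufb7 read 3424, 3049 and 3715 in control and 3397, 2848 and 3541 with GH at 30 min, and 3996, 3512 and 4505 in control and 4530, 3999 and 4949 with GH at 48 h (0.35 ± 0.11, adjusted p = 0.185). Ndufb2 read 6460, 5422 and 6460 in control and 6505, 5154 and 7119 with GH at 30 min, and 7763, 6425 and 8564 in control and 8339, 7252 and 9546 with GH at 48 h (0.36 ± 0.14, adjusted p = 0.303). In both, experiment 2 was low at each time, so the difference shows within experiments while the groups overlap. The probe set used for Ndufb2 is of the _f_at kind, shared within a gene family. So are those of Atp5d and Cox6b2, and 13 members in all are read by this kind. A second bright probe set of Ndufb2 gave 0.37 (adjusted p = 0.146).

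Uqcrh, the hinge protein of complex III that sits beside cytochrome c1, read 6414, 4306 and 4586 in control and 5676, 4744 and 4774 with GH at 30 min. At 48 h it read 6608, 5272 and 6051 in control and 7991, 6161 and 6591 with GH (0.34 ± 0.14, adjusted p = 0.306), with experiment 1 high at both times. Sdhaf1 read 896, 1035 and 750 in control and 866, 890 and 939 with GH at 30 min, and 1080, 1219 and 919 in control and 1417, 1372 and 1084 with GH at 48 h. Its change was 0.38 ± 0.12 (adjusted p = 0.186), on an _f_at probe set, a kind shared within a gene family.

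A few members, among them catalytic ones, had nearly equal or lower means at 48 h. Sdha changed by 0.03, the gamma subunit Atp5c1 by -0.07, Cox6a1 by -0.06, Ndufaf1 by -0.02 and Cox7a1, near background, by -0.37. By complex, 29 of 29 members of complex I were higher at 48 h (median 0.26), 4 of 4 of complex II (0.28), 7 of 7 of complex III (0.19), 13 of 15 of complex IV (0.19) and 13 of 14 of complex V (0.24). Of the assembly factors 3 of 4 were higher (0.11). No member of complexes II, III and IV was called without the block.

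Compared within each treatment, in the same model of all 18 arrays, both control and GH arrays had most members higher at 48 h. In controls 63 of 73 members were higher at 48 h, with a median of 0.22 (all genes 0.04), 31 of them in 3 of 3 experiments (42.5%, all genes 17.2%). This median fell to 0.14 without control 48 h of experiment 3 and to 0.13 without experiment 3. An unadjusted p below 0.05 was found in 9 members in controls (5.46% of all probe sets) and in 20 with GH (11.8%). In controls none was called (0.129% of all probe sets, 0.0242% higher), the lowest adjusted p being 0.608. With GH 65 were higher, with a median of 0.29 (all genes 0.09), 47 of them in 3 of 3 experiments (64.4%, all genes 24.8%). There, 2 rose (1.32% of all probe sets were called, 0.491% higher), Ndufb10 by 0.63 ± 0.14 (adjusted p = 0.042) and Ndufc1 by 0.75 ± 0.18 (adjusted p = 0.048). Ndufb10 lost its call when averaged with its second, near-background probe set (0.47, adjusted p = 0.143). Both calls ended with a pseudocount of 1, with median centring, which also moved the median to 0.18, without the 3 arrays whose description names another group, and with the 6 arrays fitted alone (adjusted p = 0.329 and 0.356). With the block, whose experiment numbers pair these GH arrays, 9 rose (1.75% of all probe sets), adding Atp5o (0.71), Atp5k (0.58), Ndufa13 (0.57), Ndufb8 (0.54), Sdhaf1 (0.50), Sdhd (0.49) and Ndufb7 (0.46). The difference between the 2 time courses is the difference of GH effects given above, in which no member passed.

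**Figure D5:**
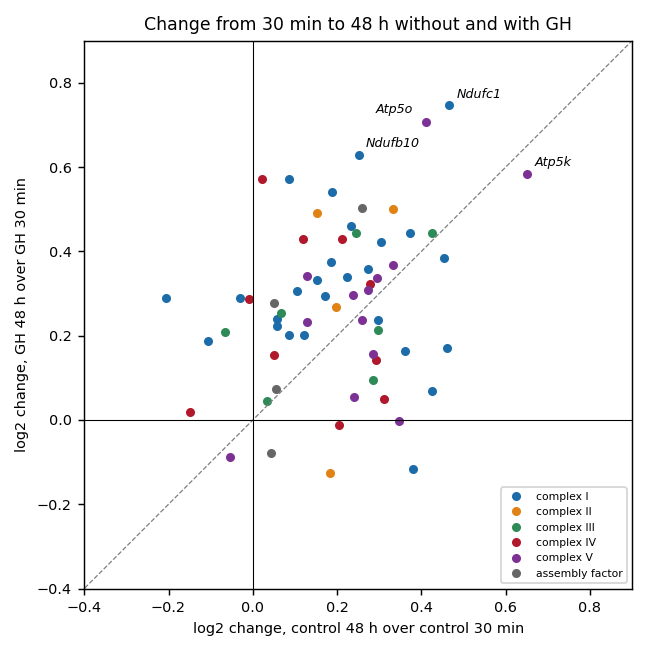
Each point is 1 of the 64 members above background, coloured by complex: the log2 change from 30 min to 48 h in control (horizontal) and with GH (vertical); the dashed line marks equal change. Most points lie above 0 on both axes, on both sides of the dashed line, and the 4 named members are among the farthest out.

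Per-array values show where Ndufa13, Sdhd and Ndufb8 stood. Ndufa13 read 1975, 1517 and 2089 in control and 1879, 2394 and 2316 with GH at 48 h, so that the GH arrays at 48 h were above all 3 at 30 min. Sdhd read 4650, 4421 and 5411 in control and 4545, 5176 and 5500 with GH at 48 h, again above its GH values at 30 min. Ndufb8, a further subunit of the membrane arm, read 3955, 3708 and 2855 in control and 3409, 3379 and 3035 with GH at 30 min, and 3601, 4050 and 4254 in control and 4710, 5320 and 4326 with GH at 48 h. In each of these 3 genes control arrays of the 2 times overlapped.

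The calls between 48 h and 30 min rest on few arrays. Leaving out the control 30 min array of experiment 2 or 3, GH 30 min of experiment 2, control 48 h of experiment 1 or 3, or GH 48 h of experiment 1 left 0 of the 3 calls. Leaving out GH 30 min of experiment 1, or GH 48 h of experiment 2 or 3, left 1, and without control 48 h of experiment 2 there were 5. The 2 calls with GH alone went to 0 without GH 30 min of experiment 1 or 2 or GH 48 h of experiment 1, and to 1 without any of the other 3. The median, by contrast, stayed between 0.18 and 0.29 over both treatments in these fits.

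Other probe sets of the members gave a partial check. Of 27 such probe sets, 23 had the sign of the brighter one between 48 h and 30 min, and among the 10 pairs where both were above background 8 did. For GH at 48 h these counts were 12 of 27 and 6 of 10.

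Genes that work with the chain moved in part alike between 48 h and 30 min. Beside them stand all genes, of which 63.1% were higher with a median of 0.07. Of 21 electron carriers and partners 16 were higher (median 0.25), with 0 called. Among them, the ADP/ATP carrier Slc25a5 was at 0.50 (adjusted p = 0.063), the transhydrogenase Nnt at 0.65 (adjusted p = 0.063) and Coq7, an enzyme of ubiquinone synthesis, at 0.50 (adjusted p = 0.148). All 13 further assembly factors measured were higher (median 0.19), with 0 called. Of 61 genes with the symbol of a mitochondrial ribosomal protein 55 were higher (median 0.20). Among these 1 rose, Mrps36 (0.57, adjusted p = 0.035), which is in the list by its symbol alone, so its call is not credited to the ribosome.

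Enzymes of the citric acid cycle were higher in 16 of 17 cases (median 0.13), with 0 called, Idh3a being at 0.46 (adjusted p = 0.094). Cytosolic ribosomal genes, which have no part in respiration, were higher in 30 of 33 (median 0.16), with 0 called, so a shift of this size was not restricted to mitochondrial genes. The 17 regulators of mitochondrial biogenesis had 9 higher and 8 lower, a median of 0.01 and 0 called.

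Markers of cell type also moved between these times. Of 15 adipocyte markers 10 were lower at 48 h (median -0.17), with 0 called. Retn, resistin, was at -0.44 (adjusted p = 0.444). Their summed signal ran from 128111 to 190996 at 30 min and from 130537 to 166259 at 48 h. Of 14 preadipocyte and fibroblast markers 8 were lower, and Acta2, smooth muscle actin (-1.62), and Postn, periostin (-0.86), fell. The mean of Postn was 4758 at 30 min and 4910 at 48 h in control, and 5251 and 1616 with GH, so only GH arrays carried its fall. Others went up, such as Col1a1, with means of 5012 and 7608 in control and 4754 and 7398 with GH. The part of these markers in the members' shift was not tested.

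At 48 h, fibroblast markers differed with GH as well. All 14 had a lower mean log2 value with GH (median change -0.65), although the mean signal of Col1a2 was 6771 in control and 6794 with GH, and Postn fell by 1.65 ± 0.25 on the log2 scale (adjusted p = 0.0078), with 4 falling with the block. By experiment the median was -1.03, -1.11 and 0.04. The summed signal ran from 43201 to 62619 in control and from 20301 to 63813 with GH, so experiment 3 did not share it. For the same comparison the members' medians were 0.12, 0.15 and 0.02. Adipocyte markers differed too, in both directions. The median log2 deviation of the 15 from their own means was -0.05, 0.01 and 0.14 in control and -0.16, -0.11 and -0.27 with GH. These deviations are from the mean over all 18 arrays, not from control. By mean signal at 48 h the list was split. Adipoq, Lep, Pparg, Cebpa, Pnpla2, Dgat1, Slc2a4 and Gpd1 were higher with GH, Lep at 565 in control and 810 with GH. Fabp4, Lpl, Retn, Cidec, Lipe, Cd36 and Scd1 were lower, Retn at 12384 in control and 8344 with GH. The part of either marker list in the members' shift was not tested.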

How the data were processed

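The values are the authors' deposited signal intensities of 18 Affymetrix MG_U74Av2 arrays; the summary method and software are not given in the sources used here. Of 12488 probe sets, the 66 manufacturer's controls were left out. Signals were analysed as log2(signal + 25) with limma 3.58.1 (R 4.3.3): a model of 6 group means over all arrays (12 residual degrees of freedom), two-sided, Benjamini-Hochberg adjustment over 12422 probe sets, threshold 0.05. The scaling makes every change relative to the bulk of probe sets. Arrays give no read depth, and their number limits precision.

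Same-numbered GH and control arrays deviated together from their group means (r from 0.151 to 0.457, limit 0.1), as did GH arrays at 30 min and 48 h (0.199 to 0.299). For these the model with experiment as a replicate block (10 degrees of freedom) is given where it changes a call. The members and all gene lists were chosen with earlier results of these data known. Per-array values are given for members called in any comparison, with or without the block. They are also given for the 3 with the lowest p per direction and GH comparison. For single genes of other lists, changes or mean signals are given instead. Symbols are the platform table's (10833 probe sets with 1, 396 with several, 1193 with none), and all 73 members matched the RefSeq gene table. The scripts were tested on simulated data.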

Additional observations from a re-analysis of the deposited data

How the results depend on the processing

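No member was called for GH against control at any time, over all times or between times under any alternative run: pseudocounts of 1 and 100, quantile normalization, median centring, a filter on dim probe sets, the mean of a gene's probe sets, the replicate block, the arrays compared alone, leaving out the 3 arrays with another group in the description, and leaving out arrays or experiments. The cause of the differences below was not tested. Between 48 h and 30 min over both treatments, 3 members became 1 with a pseudocount of 1, 6 with 100, 6 with the filter and 0 with median centring, without the 3 arrays or with the compared arrays alone, and 0 to 5 in leave-one-out fits. With the replicate block there were 10 (3.81% of all probe sets), but same-numbered arrays of 1 treatment at 30 min and 48 h correlated at 0.069 to 0.299, 2 of the 6 pairs under the limit of 0.1, so by that limit the arrays of this comparison share only a number. As a hint from the data, 11 of the 12 arrays correlated best with their own number. With GH alone, 2 became 9 with the block, 0 with a pseudocount of 1, median centring, without the 3 arrays or with the compared arrays alone, and 0 to 2 in leave-one-out fits. The median there moved from 0.29 to 0.18 with median centring. Median centring also moved the median at 30 min to 0.047 and the 4 h minus 30 min difference to -0.11. Without the 3 arrays the median at 48 h was 0.17, and with the mean of probe sets that over all times was 0.0099. Leave-one-out medians ran from -0.080 to 0.060 at 4 h, 0.015 to 0.17 at 48 h, -0.0057 to 0.052 over all times and -0.087 to 0.035 for 4 h minus 30 min. Signs turned for Ndufv2 at 30 min (-0.080) and Cox6b2 at 48 h (-0.0026) with the mean of probe sets, and for Atp5d at 30 min without experiment 1 (-0.035) or its control array (-0.020), within a leave-one-out range up to 0.398.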
